A study of Mus musculus with 12 samples.

Results

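S9.6 peaks were described at 5 mouse genes in and beside loci that are used as safe harbours, places where a transgene can be inserted and expressed with little harm to the cell. They were Gt(ROSA)26Sor, the noncoding gene of the Rosa26 locus, its neighbours Thumpd3 and Setd5, Ppp1r12c, the mouse counterpart of the gene that carries the human AAVS1 site, and Drg1, which borders the H11 (Hipp11) site. These genes were chosen by name from 49943 genes of a RefSeq table, and a peak belonged to a gene when it overlapped the gene body with 1 kb on both sides. By this rule 24 of 28717 peaks of the HEPA1-6 list and 7 of 14908 peaks of the liver list lay at the 5 genes. HEPA1-6 is a mouse hepatoma cell line, and the liver came from C57/Bl6 mice whose age the labels do not give. Both sources are labelled wild type (WT), untreated and of the cell type hepatocyte. Each gave 2 libraries of S9.6 immunoprecipitate, 2 of immunoprecipitate with RNase H1, which digests the RNA of a hybrid, and 2 of input DNA. The data used were 1 merged peak list per source, so no value has a replicate spread and no difference was tested. Library depth is unknown, and the RNase H1 libraries were not analysed here.

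An R-loop forms when RNA pairs with the DNA strand it was copied from and leaves the other strand single. R-loops are found where genes are transcribed, often at CpG-rich starts and at the ends of genes, and S9.6 is an antibody that binds the RNA-DNA hybrid. Rosa26 was found by gene trapping in mouse embryonic stem cells, and transgenes are placed in the first intron of its noncoding transcript, whose promoter is active in most tissues. AAVS1 is the site in the human genome where adeno-associated virus integrates by preference, and H11 is an intergenic site between Eif4enif1 and Drg1.

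The tissue label was set against marker genes. Of 16 hepatocyte markers, 4 had a peak in HEPA1-6 and 3 in the liver list, among them Alb in both lists, whereas Apoa1 and Ttr held none. Of 8 cell cycle genes, 7 held a peak in each list. These shares stand beside 42.0% and 29.7% of all protein-coding genes. None of 4 endothelial and none of 4 Kupffer cell and leukocyte markers held a peak in either list. In both lists 1 of 4 stellate cell markers (Dcn), 1 of 4 cholangiocyte markers (Sox9) and 1 of 4 hepatoma and fetal liver markers (Afp) held one. These counts were alike in both lists and do not tell the sources apart. The second list is called liver-labelled, or the list labelled liver, below, after its label. A peak is an interval called from S9.6 immunoprecipitate against input, and not an expression level. Whether RNase H1 removes the signal of a given peak was not examined. The bearing of these markers on the values below was not tested. The score that the authors gave each peak is a whole number on an unstated scale, with a median of 21 in HEPA1-6 and 22 in the list labelled liver. It is used here as a percentile within its own list.

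Promoter sequence was at hand for 3 of the 5 genes, Thumpd3, Setd5 and Ppp1r12c (RefSeq, GRCm38.p6, 250 bases before to 50 bases after an annotated start). All 3 are shown. Their base content differs widely, and none of these windows overlapped a peak. The window of Hprt, another locus used for insertion, was picked because a HEPA1-6 peak lay over it, so the 4 windows are no fair sample. The windows are chr6:113046052-113046351 on the plus strand for Thumpd3, chr6:113104685-113104984 on the plus strand for Setd5, chr7:4501631-4501930 on the minus strand for Ppp1r12c and chrX:52987828-52988127 on the plus strand for Hprt. Each is written from 5′ to 3′ on the gene's own strand, and capitals mark runs of at least 4 G (GGGG) or, for the other strand, at least 4 C (CCCC).
Thumpd3: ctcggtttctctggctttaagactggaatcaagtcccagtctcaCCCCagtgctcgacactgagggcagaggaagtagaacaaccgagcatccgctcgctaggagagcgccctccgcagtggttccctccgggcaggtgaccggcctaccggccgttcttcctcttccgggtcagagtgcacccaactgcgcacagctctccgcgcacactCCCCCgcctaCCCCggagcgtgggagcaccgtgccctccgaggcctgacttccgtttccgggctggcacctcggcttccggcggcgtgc
Setd5: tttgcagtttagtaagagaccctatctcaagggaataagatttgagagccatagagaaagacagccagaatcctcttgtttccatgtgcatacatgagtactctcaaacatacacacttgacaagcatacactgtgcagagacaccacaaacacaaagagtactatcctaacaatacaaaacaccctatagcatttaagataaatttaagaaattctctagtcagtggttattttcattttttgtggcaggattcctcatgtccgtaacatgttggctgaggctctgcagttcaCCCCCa
Ppp1r12c: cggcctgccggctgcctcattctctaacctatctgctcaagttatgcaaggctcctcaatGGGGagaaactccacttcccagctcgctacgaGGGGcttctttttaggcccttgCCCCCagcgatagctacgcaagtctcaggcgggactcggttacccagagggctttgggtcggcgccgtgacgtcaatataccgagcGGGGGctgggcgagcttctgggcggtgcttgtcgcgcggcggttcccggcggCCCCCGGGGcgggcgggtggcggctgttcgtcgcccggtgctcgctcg
Hprt: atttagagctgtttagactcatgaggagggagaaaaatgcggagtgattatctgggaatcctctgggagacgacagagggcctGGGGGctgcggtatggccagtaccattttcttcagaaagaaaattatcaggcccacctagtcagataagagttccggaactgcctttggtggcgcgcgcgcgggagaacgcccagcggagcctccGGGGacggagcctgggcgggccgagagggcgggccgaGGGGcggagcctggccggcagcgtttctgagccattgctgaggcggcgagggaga

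Of 32851 promoter windows in the table, 69.0% held GGGG on the gene's strand, 66.6% held CCCC, and 86.4% held either. The Thumpd3 window had 0 runs of GGGG and 3 of CCCC, and its GC skew, (G − C)/(G + C), was -0.137, at percentile 14.6 of all windows. Its GC content was 65.7% and its ratio of observed to expected CpG 0.819. The Setd5 window belongs to a start inside the gene, not to the outer start beside Gt(ROSA)26Sor. It had a GC content of 39.7% (percentile 9.77) and a CpG ratio of 0.0861, the lowest of the 4 windows shown. The Ppp1r12c window had a GC content of 66.0%, a CpG ratio of 0.95, 4 runs of GGGG and a skew of 0.0303, close to the median skew of 0.0128. The Hprt window had 3 runs of GGGG, 0 of CCCC and a skew of 0.257 (percentile 94.6). A window of Clybl, a further locus used for insertion, is not shown and overlapped no peak of either list. It had 5 runs of GGGG, 0 of CCCC and a skew of 0.317 (percentile 97.3). The windows of Hprt and Clybl are too few to show whether such base content goes with a peak. Over the whole set, 15.3% of windows overlapped a peak of HEPA1-6 and 9.85% one of the liver-labelled list. The median GC content was 62.7% in windows with a HEPA1-6 peak and 51.0% in those without. For the liver-labelled list the medians were 63.3% and 51.7%, and neither difference was tested. These are descriptions of letters in a window and show no site.

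Peaks were called at all 5 genes in HEPA1-6 and at 4 of them, all but Drg1, in the liver-labelled list. The shares over all protein-coding genes were 42.0% and 29.7%, with 27.8% in both lists, and over lncRNA genes 13.6% and 8.97%. Of the 4 protein-coding genes described here, 4 and 3 held a peak, and 3 held one in both lists. Genes of 10 to 50 kb, the class of Thumpd3, Ppp1r12c and Drg1, held a peak in 49.6% and 33.6% of cases, and genes above 50 kb, the class of Setd5, in 47.3% and 35.2%. The 5 genes are few and 3 of them are neighbours, and no test was made against these shares.

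Gt(ROSA)26Sor (gene ID 14910), an lncRNA gene of 9817 bp at chr6:113067428-113077244, carried the highest-scoring peak of the group. The interval chr6:113075272-113079260, 3989 bp wide, was called with the same start and end in both lists. It scored 370 in HEPA1-6, rank 73 of the list (percentile 99.7), and 184 in the liver-labelled list, rank 132 (percentile 99.1). The peak reached from 2016 bp before the start of Gt(ROSA)26Sor to 1972 bp downstream of it. Among lncRNA genes with a peak, 5 of 1737 had a higher top score in HEPA1-6 and 10 of 1142 in the list labelled liver. In both sources this peak was far above the list median, and the next highest peaks at the 5 genes scored 86 in HEPA1-6 and 50 in the list labelled liver.

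The same peak covered the start of Setd5. The outer start of Setd5 lies 18 bp from that of Gt(ROSA)26Sor on the opposite strand, and the 17 bp between the genes lay wholly inside the peak. Gaps under 1 kb between neighbouring protein-coding or lncRNA genes lay wholly inside a peak in 28.2% of 3180 cases in HEPA1-6, 16.1% in the liver-labelled list and 15.0% in both. These shares take in all sizes under 1 kb and were not matched to a gap as short as 17 bp, which a peak encloses more easily. The authors gave the peak the minus strand, that of Gt(ROSA)26Sor, in both lists. The strand of Gt(ROSA)26Sor was itself taken from 1 HEPA1-6 peak over that gene alone, so its direction and start rest on that peak. The other narrow gap in this cluster, 130 bp between the lncRNA gene Gm43868 and Thumpd3, overlapped no peak in either list. A second HEPA1-6 peak of Gt(ROSA)26Sor, chr6:113069978-113070483, lay 6761 to 7266 bp downstream of the start, scored 17 (percentile 33.3) and had no liver-labelled counterpart. The RefSeq table used holds gene boundaries without exons, so the first intron and its insertion site were not placed against these intervals.

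**Figure D1:**
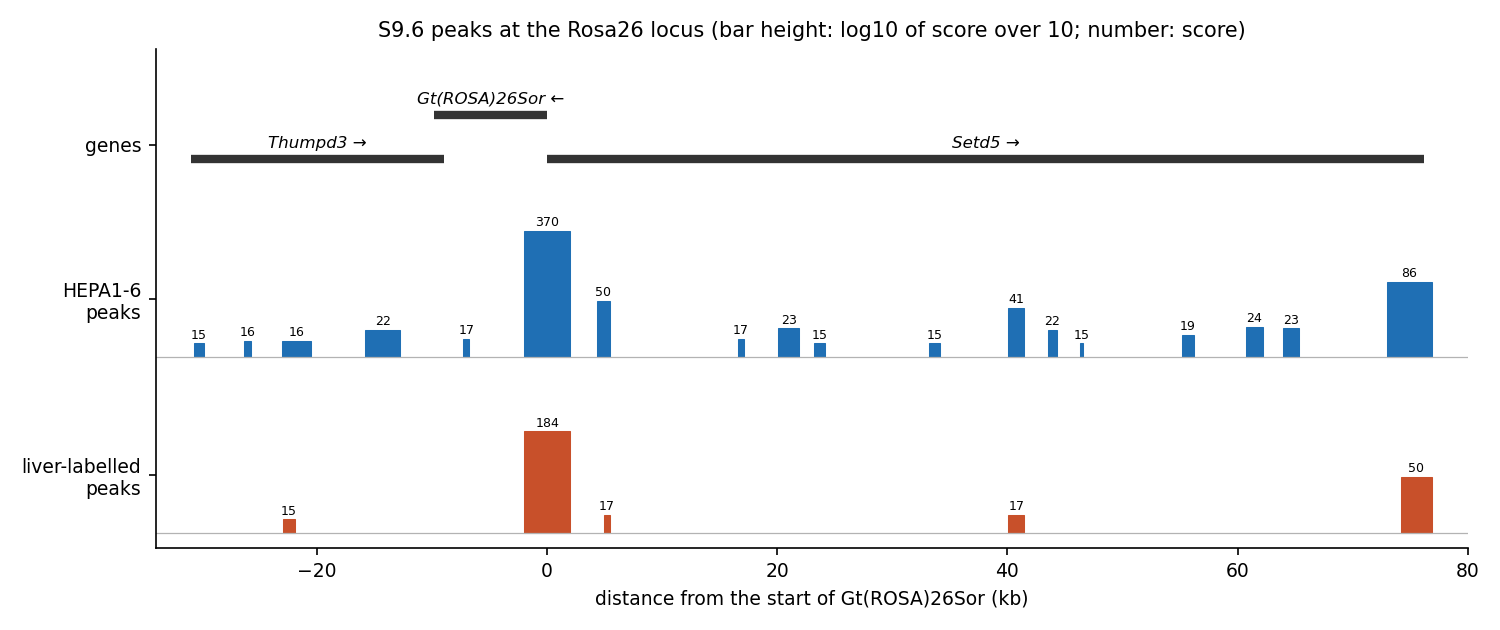
Peaks at Thumpd3, Gt(ROSA)26Sor and Setd5, drawn to scale by distance from the start of Gt(ROSA)26Sor (kb, arrows give the direction of transcription). Bar height is the log10 of the score over 10 and the number above a bar is the score; the peaks of 370 and 184 over the shared start stand above all others, and 18 HEPA1-6 peaks face 5 liver-labelled peaks.

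Thumpd3 (gene ID 14911, chr6:113046302-113068278), which encodes a THUMP domain protein that modifies tRNA, held 4 HEPA1-6 peaks of low score. They scored 15, 16, 16 and 22, and only the last was above the list median. The first, chr6:113046554-113047414, began 252 bp downstream of the start of the gene and 202 bp beyond the promoter window shown above. The highest, chr6:113061454-113064464, was 3011 bp wide and had the minus strand, opposite to Thumpd3, although it overlapped no other protein-coding or lncRNA gene. The single liver-labelled peak, chr6:113054259-113055299 (score 15, percentile 15.4), lay within the third HEPA1-6 peak, chr6:113054255-113056750, and their starts were 4 bp apart. By the strands used here, Thumpd3 and Gt(ROSA)26Sor run towards each other and share 851 bp at their 3′ ends. No peak of either list overlapped the shared stretch, and the nearest HEPA1-6 peaks were 2963 bp and 1699 bp away.

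Setd5 (gene ID 72895, chr6:113077262-113153432), a SET domain gene of chromatin regulation, held 13 HEPA1-6 and 4 liver-labelled peaks over 76171 bp. Among protein-coding genes above 50 kb with a peak, the median was 3 peaks in HEPA1-6 and 1 in the list labelled liver, and Setd5 stood at percentiles 91.8 and 81.9. All peaks but that over the start had the plus strand of the gene. The peak over the 3′ end was the second highest in both lists. It spanned chr6:113150214-113154131 in HEPA1-6, with a score of 86 (percentile 96.7), and its liver-labelled counterpart chr6:113151405-113154115, with a score of 50 (percentile 91.4). They passed the gene's end by 699 bp and 683 bp. Thus the 2 ends of Setd5 carried its strongest peaks in each source.

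Between its ends Setd5 held 11 HEPA1-6 peaks with scores from 15 to 50. The peak closest to the start, chr6:113081564-113082699, scored 50 (percentile 90.6), and the liver-labelled peak inside it, chr6:113082199-113082699, scored 17 (percentile 28.6) and shared its end. In the middle of the gene, chr6:113117318-113118728 was called with the same boundaries in both lists and scored 41 (percentile 85.8) and 17 (percentile 28.6). The other 9 internal HEPA1-6 peaks scored 15 to 24 and overlapped no liver-labelled peak. Every liver-labelled peak of Setd5 overlapped a HEPA1-6 peak. From Thumpd3 to Setd5, with 1 kb on both sides, the locus spanned 109131 bp. HEPA1-6 peaks of the 3 genes covered 25% of it, against 8.85% in the liver-labelled list. Beyond Setd5 the next gene, Lhfpl4, held no peak in either list.

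Ppp1r12c (gene ID 232807, chr7:4481519-4503763), a regulatory subunit of protein phosphatase 1, held 3 HEPA1-6 and 2 liver-labelled peaks, all on the minus strand of the gene. Its highest peak in both lists lay at the 3′ end. It spanned chr7:4480540-4484638 in HEPA1-6 (4099 bp, score 58, percentile 93.0) and chr7:4481459-4483035 in the liver-labelled list (1577 bp, score 32, percentile 76.2). The HEPA1-6 peak passed the 3′ end by 979 bp and covered 95% of the 1031 bp to Eps8l1, while the liver-labelled peak passed it by 60 bp. The other HEPA1-6 peaks both scored 13 (percentile 10.1). The other liver-labelled peak, chr7:4500209-4500472, scored 25 (percentile 61.2) and overlapped no HEPA1-6 peak. It was the only liver-labelled peak at the 5 genes without a counterpart and lay 1208 bp downstream of the start whose promoter window is shown above. No peak overlapped that window, the outer 5′ boundary of the gene or the 805 bp between Ppp1r12c and Tnnt1.

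Drg1 (gene ID 13494, chr11:3249907-3266464), a GTP-binding protein gene, held 3 HEPA1-6 peaks and no liver-labelled peak. The peak at its start, chr11:3265592-3266491, scored 17 (percentile 33.3) and reached from 27 bp before the start to 872 bp downstream of it. The peak inside the gene, chr11:3254972-3256826, scored 25 (percentile 63.2). The third, chr11:3247020-3249238, also scored 25 and lay outside the gene, 668 bp beyond its 3′ end. It entered the window by 332 bp. A liver-labelled peak inside that interval, chr11:3247313-3248277 (score 16, percentile 22.2), ended 629 bp outside the window, so the absence of a call at Drg1 in this list depends on the width of the flank. With 5 kb on both sides Drg1 held 1 liver-labelled peak. At this unknown depth a weaker peak would not be listed.

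The H11 site lies in the 5318 bp between the 3′ ends of Eif4enif1 and Drg1, and both lists had peaks there. HEPA1-6 peaks covered 46.8% of this gap, with chr11:3245746-3246013 on the plus strand (score 31, percentile 75.4) and the peak of score 25 on the minus strand. The liver-labelled peak of score 16 covered 18.1%. Of 4528 gaps of 2 to 10 kb between neighbouring protein-coding genes, 31.0% overlapped a peak of the HEPA1-6 list and 17.0% a peak of the other list, and 7.73% and 7.29% were covered at least as far as this gap was. The 3′ end of Drg1 was placed by the strand of its peaks. Eif4enif1, which encodes a binding protein of the cap-binding factor eIF4E, held 6 HEPA1-6 and 2 liver-labelled peaks. Its widest HEPA1-6 peak, chr11:3238299-3244353, scored 32 and ended before the gap, and a liver-labelled peak of 253 bp with the same start scored 60 (percentile 94.2). The position of the H11 insertion site within the gap was not placed here.

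**Figure D2:**
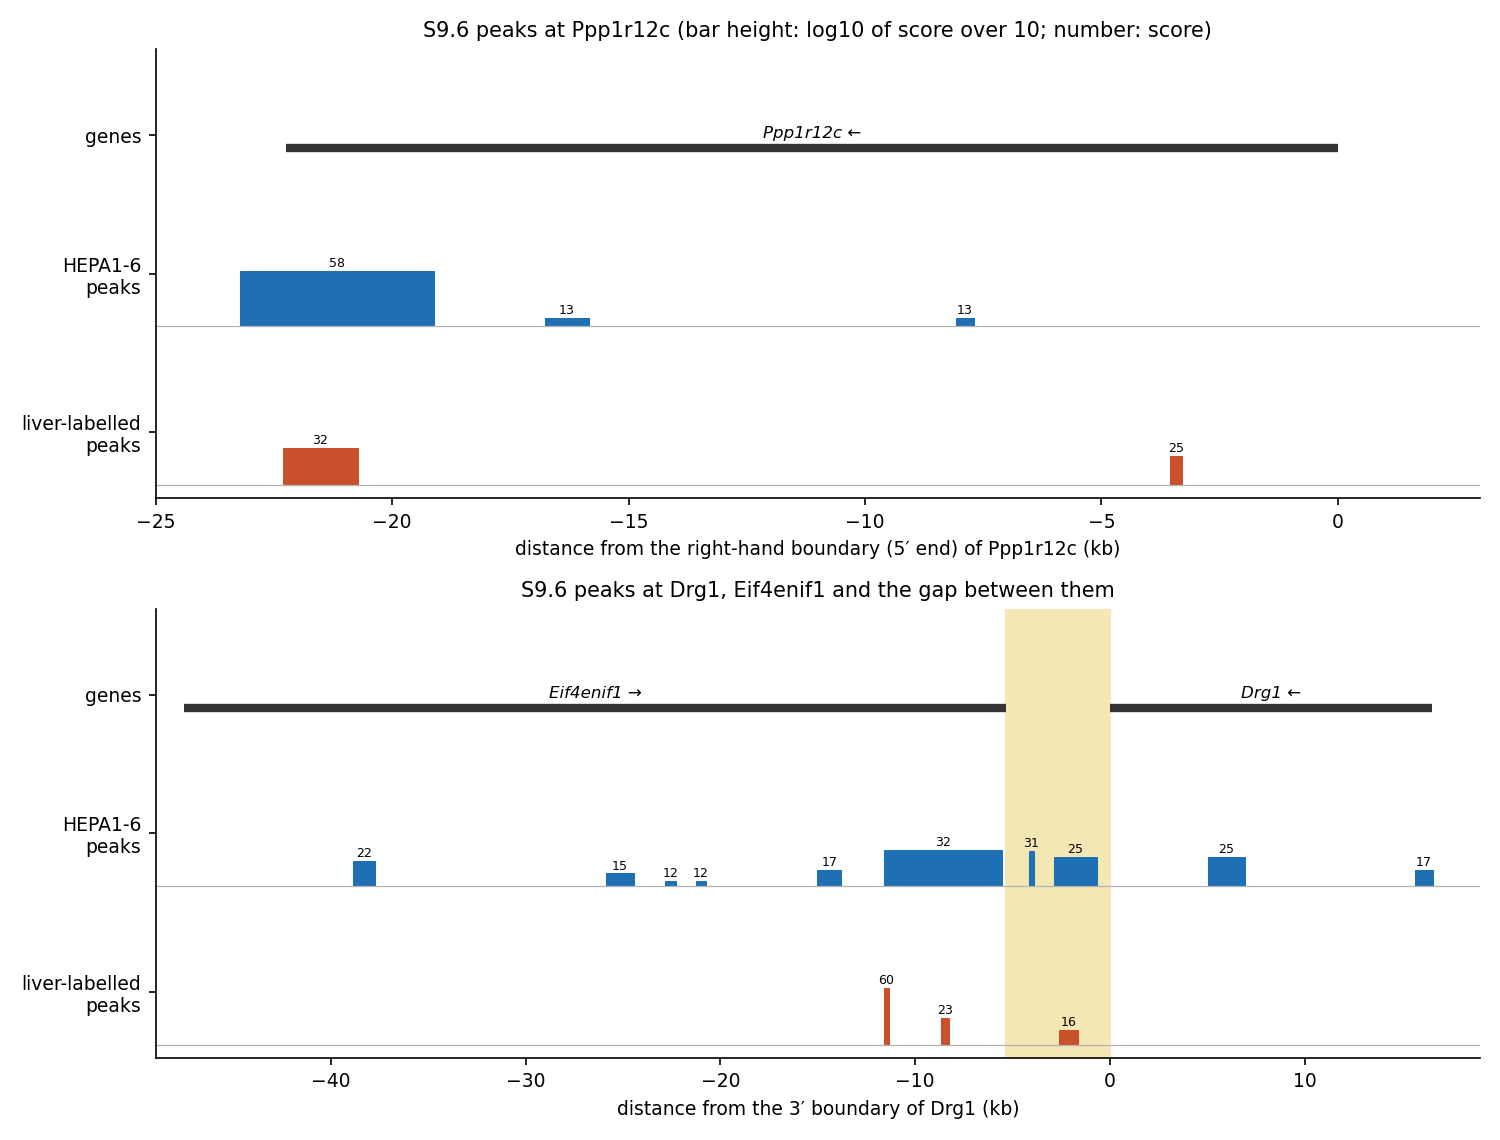
Peaks at Ppp1r12c (upper plot, distance from its outer 5′ boundary in kb) and at Eif4enif1 and Drg1 (lower plot, distance from the 3′ boundary of Drg1 in kb). Bars give the log10 of the score over 10 with the score above them, arrows the direction of transcription; the shaded gap of 5318 bp holds 2 HEPA1-6 peaks and 1 liver-labelled peak, and the highest bars at Ppp1r12c (58 and 32) lie at its 3′ end.

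Scores at the 5 genes lay on both sides of the list medians. The 24 HEPA1-6 peaks scored 13 to 370 with a median of 20.5, close to the list median of 21, and 12 of them were above it. The 7 liver-labelled peaks scored 15 to 184 with a median of 25, and 4 were above the list median of 22. Besides the peak over the shared start, HEPA1-6 scores of 86, 58, 50 and 41 and a liver-labelled score of 50 stood at percentiles from 85.8 to 96.7 of their lists. The highest scores at Thumpd3 and Drg1, 22 and 25 in HEPA1-6, stood at percentiles 23.4 and 29.6 of genes of their length class with a peak. Ppp1r12c stood at 77.7 and, among liver-labelled genes, at 58.9. Setd5 stood at 99.4 and 98.8, through the peak it shares with Gt(ROSA)26Sor.

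**Figure D3:**
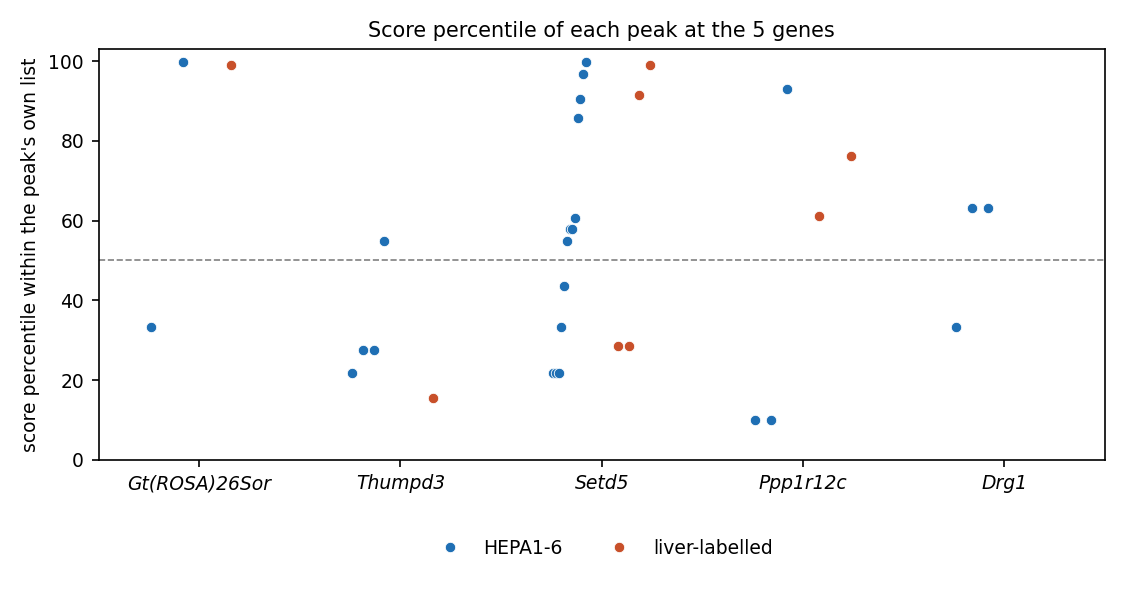
Each point is a peak at a gene, placed by the percentile of its score within its own list (blue HEPA1-6, red liver-labelled; dashed line at percentile 50). The shared peak, drawn at both Gt(ROSA)26Sor and Setd5, stands at 99.7 and 99.1, while Thumpd3 has a single point above the line, at 54.8.

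The share of a window covered by peaks differed less between the sources at Gt(ROSA)26Sor than at the other genes. Peaks covered 29.4% of its window in HEPA1-6 and 25.2% in the list labelled liver. At Thumpd3 these shares were 29.2% and 4.34%, at Setd5 24.1% and 9.75%, at Ppp1r12c 22.3% and 7.59%, and at Drg1 16.6% and none. The HEPA1-6 list is 1.93 times as long as the liver-labelled list, and at the 5 genes it held 3.43 times as many peaks. With the HEPA1-6 list shortened to the length of the other by score, it held 12 peaks against 7, or 1.71 times as many. With 1 list per source the ratio has no error from replicates, and it moves with the unknown depths.

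**Figure D4:**
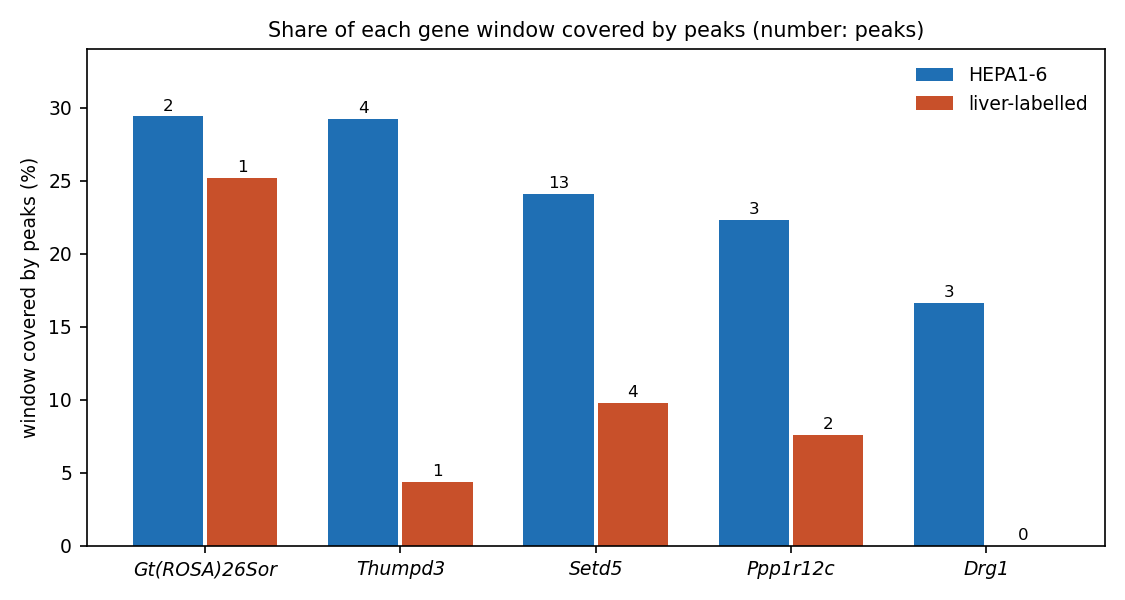
Bars give the percentage of each gene window (gene body with 1 kb on both sides) covered by peaks, blue for HEPA1-6 and red for the liver-labelled list, with the number of peaks above each bar. Coverage at Gt(ROSA)26Sor is 29.4% and 25.2%, whereas at Thumpd3 it is 29.2% and 4.34%; there are no replicate lists and so no error bars.

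The lists were then intersected at the 5 genes. Of the HEPA1-6 peaks, 7 of 24 (29.2%) overlapped a liver-labelled peak, against 31.8% of the whole list, and of the liver-labelled peaks 6 of 7 (85.7%) overlapped a HEPA1-6 peak, against 75.9%. Both shares were near those of the lists. The 7 HEPA1-6 peaks with a counterpart scored 16 to 370 (median 50) and were 1136 to 4099 bp wide. The 17 without one scored 13 to 25 (median 17.0) and were 247 to 3011 bp wide. The highest score without a counterpart, 25, was taken as a cut from these same peaks. That all 5 HEPA1-6 peaks above it had a counterpart therefore follows from the cut and is no result about these genes. Over the whole list 63.9% of HEPA1-6 peaks above that score had a counterpart, against 14.0% of the others. These 7 HEPA1-6 peaks form 7 overlapping pairs. The pair beyond the 3′ end of Drg1 is among them, although its liver-labelled interval lies outside the window and is not among the 7 liver-labelled peaks. The 7 overlapping pairs had the same strand in both lists, as did 86.0% of all pairs with a strand in both. In each of the 7 the liver-labelled interval lay inside the HEPA1-6 interval or matched it, as in 86.0% of all pairs. Both boundaries were identical in 2 of the 7 pairs, the shared start and the middle of Setd5, and in 6.29% of all 11455 overlapping pairs of the lists. At least 1 boundary was identical in 3 of 7 pairs and in 46.1% of all pairs.

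Genes with the most similar top scores were sought among 7035 other protein-coding or lncRNA genes with a peak in both lists, by the distance of log10 scores over the 2 sources. Closest to Gt(ROSA)26Sor after Setd5 were Hnrnpk, an RNA-binding protein gene, and Rmi1, of the BLM helicase complex, both at a distance of 0.00749. Those genes are neighbours on chromosome 13 that share their highest peak, scoring 375 in HEPA1-6 (chr13:58399177-58404512) and 186 in the liver-labelled list (chr13:58399349-58405038). For Ppp1r12c the closest were Eps8l1, whose window takes in the same peaks, and Rplp1, a protein gene of the ribosomal stalk (58 and 32). For Thumpd3 they were Gm16217, Gm46850 and the histone demethylase gene Kdm4a, all with the same pair of scores, 22 and 15.

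Other loci used for insertion were looked up in the same way. Of 7 further names, 6 were in the gene table (Igs7 was not matched). Carm1, an arginine methyltransferase gene beside the TIGRE locus, held 1 peak in each list, scoring 46 in HEPA1-6 and 26 in the list labelled liver, at its right-hand end and away from its neighbour AB124611. These peaks overlapped and had opposite strands. AB124611 and the 1560 bp between these genes held no peak in either list. Hprt, the purine salvage gene on the X chromosome, held 1 HEPA1-6 peak over its start, chrX:52987261-52988282 (score 42, percentile 86.5), and no liver-labelled peak. Col1a1, a collagen gene, and Clybl, a gene of mitochondrial metabolism, held no peak in either list. Among these 6 genes, 3 had a peak in HEPA1-6 and 2 in the other list, Eif4enif1 and Carm1 in both, counts near the 42.0% and 29.7% of all protein-coding genes. Eif4enif1, with 6 and 2 peaks, held more HEPA1-6 peaks than any of the 5 genes but Setd5. This count is not adjusted for length: Eif4enif1 spans 42246 bp, and the longest of the genes it exceeded, Ppp1r12c, spans 22245 bp.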

How the data were processed

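DNA from S9.6 immunoprecipitates and inputs of HEPA1-6 cells and mouse liver was sequenced. Per the submitters' processing notes, CASAVA 1.8.2, cutadapt, Bowtie2, SAMtools, bedtools and MACS2 were used with build mm10 (GRCm38); settings are not given in the sources used here. The authors deposited 1 list per source, in which peaks are named as merged IP against IN (input). The authors' score, deposited with each peak, has no stated scale and was used only within its list. How a strand was given to a peak is not given in the sources used here.

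Peaks were laid over RefSeq genes (GRCm38.p6, chromosomes 1 to 19, X and Y) with Python 3.11.15 and pandas 2.3.3; an overlap of 1 bp counted. Gene strands came from the promoter table or, for Gt(ROSA)26Sor and Drg1, from peaks over that gene alone. Interval look-ups, tested on simulated data, found every planted overlap. With 1 list per source no test was made. The 5 genes, 7 further loci, each gene's neighbours and up to 3 genes with the most similar scores are named whatever their values; other genes under this rule are not reported here. The genes and lists were chosen with earlier results of these data known. Alternatives changed the flank, the overlap, the score threshold and the list length.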

Additional observations from a re-analysis of the deposited data

How the results depend on the processing

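Under the 5 alternatives run, 5 genes held a peak in HEPA1-6 and 3 to 5 in the liver-labelled list. Keeping the higher-scoring 50% of either list left 12 of 24 HEPA1-6 peaks and 4 of 7 liver-labelled peaks, and shortening HEPA1-6 to 14908 peaks also left 12, since both settings drop low-scoring peaks. Requiring an overlap of 50% of both peaks left 3 HEPA1-6 and 3 liver-labelled peaks with a counterpart, in place of 7 and 6. Over all windows merged, HEPA1-6 peaks covered 23.6% and liver-labelled peaks 7.57%; without a flank these shares were 23.2% and 7.36%, with 5 kb they were 21.9% and 7.08%, and with the higher-scoring 50% they were 16.7% and 5.62%. For peak counts of single genes, 13 of 50 alternatives moved the count by over 1.5 times. With the higher-scoring 50% Thumpd3 held no liver-labelled peak, and with 5 kb Drg1 held 1. No paired analysis was possible because the merged lists keep no replicate numbers, and for the same reason no replicate could be left out. The unknown depth limits every missing peak.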
